A study of Mus musculus with 2 samples.

Results

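Otx1, Otx2, Emx1, Emx2, Dlx1, Dlx2, Dlx5, Dlx6, Six3 and Six6 are homeobox genes that pattern the forebrain, the midbrain and the eye of the vertebrate embryo. These 10 genes were found among the 43346 genes of the deposited tables by joining each gene identifier, without its version, to its GENCODE mouse symbol, and each symbol matched 1 gene. RNA of neural tube was sequenced from 2 pools of B6NCrl mouse embryos of mixed sex at embryonic day 11.5, and both pools belong to 1 group, so no condition or genotype was compared. Replicate 1 held tissue of 109 embryos and replicate 2 tissue of 88 embryos, so differences between single embryos were not visible. Each library was made from 10 ng of RNA longer than 200 bases, with spike-in RNAs added. By its title the assay was total RNA-seq, but a SmartSeq protocol is named too, so whether RNAs without a poly(A) tail were kept is not settled, which touches the retained-intron and antisense counts.

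The vertebrate neural tube is divided along its length into forebrain, midbrain, hindbrain and spinal cord, and homeodomain transcription factors mark these divisions. Otx and Emx proteins act at the anterior end, Six3 and Six6 act in the anterior forebrain and the eye field, and Dlx proteins act in GABAergic precursors of the ventral forebrain. Hox genes of the middle and posterior groups mark the spinal cord and are silent in the forebrain and midbrain. Several of these genes also act outside the brain: Emx2 in the urogenital ridge, Dlx5 and Dlx6 in the pharyngeal arches and limb buds, and Six3 and Otx2 in the eye.

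The libraries held 27638068 expected counts in replicate 1 and 29166901 in replicate 2, where an expected count is the estimated number of reads assigned to a gene. Levels are given in TPM, a read share corrected for transcript length, which allows levels of different genes to be set side by side. A level of 1 TPM rested on a median of 39.8 counts in replicate 1 and 41.1 in replicate 2, over genes at 1 TPM or more. Intervals given with levels are exact Poisson intervals at 95%, and a gene with no read is given the level of 3 reads as its upper limit. Both cover counting error only, since the labels name no molecular identifiers and reads may be copies of the same molecule. Markers of position along the neural tube were set beside the label. All 22 listed Hox genes of groups 4 to 10 were at 1 TPM or more in both libraries, with a median of 40.9 TPM. That level was reached by 6 of 16 forebrain genes and 7 of 13 genes of the midbrain and isthmus. These lists concern position and do not check that all of the tissue was neural.

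Promoter sequences were read for 7 of the 10 genes, as 10 windows of 300 bases that reach from 250 bases before to 50 bases after a RefSeq transcription start on GRCm38.p6. Those shown set a gene with reads in both libraries beside a gene with almost none. The windows of Dlx2, which had reads in both libraries, and of Emx1, which had 0 and 1 counts, are given first, each 5′ to 3′ on the gene's strand with every CpG dinucleotide in capitals. The Dlx2 window lies at chr2:71546705-71547004 on the minus strand and the Emx1 window at chr6:85187681-85187980 on the plus strand.
Dlx2: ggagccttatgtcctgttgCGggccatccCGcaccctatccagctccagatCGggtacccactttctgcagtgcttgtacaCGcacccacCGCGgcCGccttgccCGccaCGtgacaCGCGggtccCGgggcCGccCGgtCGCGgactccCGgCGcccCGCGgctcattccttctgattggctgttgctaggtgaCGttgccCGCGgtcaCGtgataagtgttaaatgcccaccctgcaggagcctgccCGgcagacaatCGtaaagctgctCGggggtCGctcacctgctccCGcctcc
Emx1: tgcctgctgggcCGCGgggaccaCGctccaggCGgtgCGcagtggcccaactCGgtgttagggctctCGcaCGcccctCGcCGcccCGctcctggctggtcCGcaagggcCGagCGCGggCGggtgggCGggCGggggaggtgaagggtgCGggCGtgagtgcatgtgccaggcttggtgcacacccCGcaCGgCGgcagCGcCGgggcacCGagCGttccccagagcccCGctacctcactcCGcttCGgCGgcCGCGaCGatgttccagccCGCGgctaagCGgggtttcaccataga
CpG dinucleotides numbered 29 in the Dlx2 window and 37 in the Emx1 window, against a median of 7 over the 32851 promoters of the table. Of all promoters, 87.1% had fewer CpG dinucleotides than Dlx2 and 94.4% had fewer than Emx1. The remaining counts were 27 for Dlx1, 26 for Emx2, 20 for Six6, 14 for Six3 and 6 to 16 for the 4 start sites of Otx2. The median over the 10 windows was 18 CpG dinucleotides and 58% G and C bases, against 52.7% over all promoters. The 3 higher genes with a window, Emx2, Dlx1 and Dlx2, thus had 26 to 29, and those near 0 had 6 to 37, with Emx1 above and the others below. Six6, without a single read, had more than 73.5% of promoters.

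The second pair of windows belongs to Emx2, the gene called between the libraries, and to 1 of the 4 start sites of Otx2, a gene near 0 in both libraries. Capitals mark TAATTA, the palindromic core bound by many homeodomain proteins, and TAATCC, the form bound by Otx proteins, which appears as GGATTA when it lies on the opposite strand. The Emx2 window lies at chr19:59458440-59458739 on the plus strand and the Otx2 window at chr14:48665060-48665359 on the minus strand.
Emx2: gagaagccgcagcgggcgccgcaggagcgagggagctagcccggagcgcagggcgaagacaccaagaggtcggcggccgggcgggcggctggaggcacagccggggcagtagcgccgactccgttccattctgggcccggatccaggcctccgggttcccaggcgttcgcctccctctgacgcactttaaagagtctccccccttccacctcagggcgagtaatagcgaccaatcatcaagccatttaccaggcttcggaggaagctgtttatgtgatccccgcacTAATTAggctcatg
Otx2: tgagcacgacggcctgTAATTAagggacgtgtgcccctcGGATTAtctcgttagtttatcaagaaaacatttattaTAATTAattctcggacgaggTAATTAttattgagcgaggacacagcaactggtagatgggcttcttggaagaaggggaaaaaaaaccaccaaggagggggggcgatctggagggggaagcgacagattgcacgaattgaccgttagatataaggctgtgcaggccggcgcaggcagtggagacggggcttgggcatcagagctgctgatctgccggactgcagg
Both motifs were searched on both strands, and they share no position in these windows. TAATTA was present in 3 of the 10 windows, which belong to Emx2 and Otx2, and in 5.29% of all promoters. The Emx2 window held 1 TAATTA and the Otx2 window shown held 3. TAATCC was present in 1 of the 10 windows, the Otx2 window shown, and in 7.06% of all promoters. These matches describe the letters of the windows and are not measured binding sites.

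Of the 10 genes, 2 were at 1 TPM or more in both libraries, Emx2 and Dlx2, a share of 20%. The share was 33% among all genes and 59.9% among the 21474 protein-coding genes. The median of the 10 mean levels was 0.163 TPM, against 0.06 TPM over all genes and 4.40 TPM over protein-coding genes. Together the 10 genes reached 7.71 TPM in replicate 1, against 5.23 TPM in replicate 2. Only 4 genes, Emx2, Dlx1, Dlx2 and Dlx5, had 10 or more counts in both libraries, and the other 6 had at most 6 counts in each. In whole-tissue RNA, few cells with much of a transcript and many cells with little of it cannot be told apart.

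**Figure D1:**
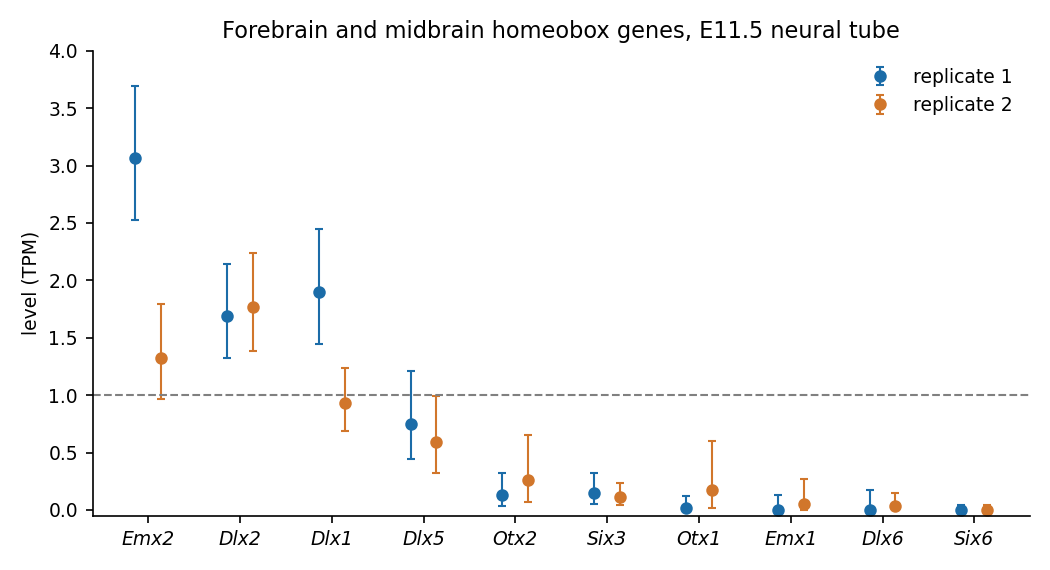
Level in TPM (vertical axis) of the 10 homeobox genes, ordered by mean, in replicate 1 (blue) and replicate 2 (orange). Bars are exact 95% Poisson intervals of the counts, or reach to the 3-count limit where no read was counted, and the dashed line marks 1 TPM; Emx2 is at 3.07 and 1.32 TPM and the 6 genes from Otx2 to Six6 lie at or below 0.26 TPM.

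Emx2 had the highest mean of the 10 genes, though Dlx2 was above it in replicate 2. Emx2 (ENSMUSG00000043969.4, chr19:59458372-59465357, plus strand) encodes a homeodomain factor of the dorsal forebrain that is also required to form kidneys and gonads. It had 111.79 expected counts and 3.07 TPM (interval 2.53 to 3.70) in replicate 1 and 43.57 expected counts and 1.32 TPM (interval 0.970 to 1.79) in replicate 2. Its mean was 2.20 ± 1.24 TPM (SD, n = 2), above the mean of 44.2% of protein-coding genes. The 2 intervals, which cover counting error only, did not overlap. Its paralog Emx1 (ENSMUSG00000033726.8, chr6:85187438-85204462, plus strand), a marker of the cortical primordium, had 0 counts in replicate 1 and 1 count in replicate 2. Its level was therefore below 0.132 TPM in replicate 1, at the limit of 3 counts, and 0.05 TPM with an upper interval bound of 0.268 TPM in replicate 2. The single Emx1 read was assigned to Emx1-202, a transcript annotated with a retained intron.

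The Dlx genes stand in convergent pairs, Dlx1 with Dlx2 on chromosome 2 and Dlx6 with Dlx5 on chromosome 6, and they encode factors that drive GABAergic differentiation in the ventral forebrain. Dlx2 (ENSMUSG00000023391.8, chr2:71543408-71546754, minus strand) was the most even of the higher genes. It had 70 and 71 counts, 1.69 TPM (interval 1.32 to 2.14) in replicate 1 and 1.77 TPM (interval 1.39 to 2.24) in replicate 2, with a mean of 1.73 ± 0.0566 TPM (SD, n = 2). Dlx1 (ENSMUSG00000041911.3, chr2:71528113-71533981, plus strand), which acts redundantly with Dlx2, had 59.1 expected counts and 1.90 TPM in replicate 1 and 47 counts and 0.93 TPM in replicate 2. The counts of Dlx1 lay closer together than its levels, because the effective length deposited for it was 1786 bases in replicate 1 and 2809 bases in replicate 2. With 1 mean effective length for both libraries, a setting chosen after seeing the data, Dlx1 was at 1.48 TPM in replicate 1 and 1.14 TPM in replicate 2 and joined Emx2 and Dlx2 as the genes at 1 TPM or more. The gap between the ends of Dlx1 and Dlx2 was 9426 bases, and the pair summed to 129.1 counts in replicate 1 and 118 in replicate 2.

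The second Dlx pair was lower. Dlx5 (ENSMUSG00000029755.9, chr6:6877805-6882085, minus strand), which is also needed for skeletal and craniofacial development, had 17 counts and 0.75 TPM (interval 0.440 to 1.21) in replicate 1 and 14 counts and 0.59 TPM (interval 0.322 to 0.988) in replicate 2. Dlx6 (ENSMUSG00000029754.9, chr6:6863334-6868568, plus strand), its partner in jaw and limb development, had 0 counts in replicate 1 and 1 count in replicate 2. Its level was below 0.178 TPM in replicate 1, at the limit of 3 counts, and 0.03 TPM with an upper bound of 0.147 TPM in replicate 2. The pair lies with a gap of 9236 bases and summed to 17 counts in replicate 1 and 15 in replicate 2, so nearly all of its reads belonged to Dlx5.

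Both Otx genes were near the limit of detection. Otx2 (ENSMUSG00000021848.11, chr14:48657677-48673819, minus strand), which is required for forebrain and midbrain formation and sets the boundary to the hindbrain, had 4 counts in each library. Its level was 0.13 TPM with an upper bound of 0.325 TPM in replicate 1 and 0.26 TPM with an upper bound of 0.656 TPM in replicate 2. Equal counts gave unequal levels because the deposited effective length was 1810 bases in replicate 1 and 869 bases in replicate 2; with 1 length the levels were 0.172 and 0.166 TPM. Otx1 (ENSMUSG00000005917.11, chr11:21994764-22002897, minus strand), a factor of the cortex and the sense organs, had 1 count in replicate 1 and 2 in replicate 2. Its levels were 0.02 TPM (upper bound 0.119) in replicate 1 and 0.17 TPM (upper bound 0.599) in replicate 2, and 0.0342 and 0.0663 TPM with 1 length. Neither Otx gene reached 1 TPM at the upper bound of its interval in either library.

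The last pair are genes of the anterior forebrain and the eye. Six3 (ENSMUSG00000038805.10, chr17:85613608-85629302, plus strand), which represses Wnt signalling there, had 6 counts in each library. Its levels were 0.15 TPM (upper bound 0.324) in replicate 1 and 0.11 TPM (upper bound 0.236) in replicate 2. Six6 (ENSMUSG00000021099.6, chr12:72939892-72944899, plus strand), a factor of the retina, hypothalamus and pituitary, was the only gene of the 10 with no read in either library. Its upper limit, at 3 counts, was 0.0441 TPM in replicate 1 and 0.0427 TPM in replicate 2. Relatives of the 10 genes differed widely in level. Six4, a factor of sensory ganglia and muscle, was at 7.54 TPM in replicate 1 and 6.74 TPM in replicate 2. Dlx3, a gene of placodes and surface ectoderm, was at 1.38 and 1.75 TPM, while the photoreceptor gene Crx had no count.

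In the order of mean level, Emx2 was followed by Dlx2, Dlx1, Dlx5, Otx2, Six3, Otx1, Emx1, Dlx6 and Six6. Of the 9 neighbouring pairs in this order, 2 were separated by the values of both libraries, Dlx1 from Dlx5 and Dlx5 from Otx2. Neighbours overlapped among Emx2, Dlx2 and Dlx1, and again from Otx2 down to Six6. The order within these groups was therefore not resolved by the 2 libraries. With 1 effective length for both libraries the order was unchanged and 5 pairs were separated. These include Otx2 from Six3 and Six3 from Otx1, genes with 6 counts or fewer in each library. Separation compares the library values only and leaves out counting error. With posterior mean TPM the order changed, and Otx2 stood above Dlx5 without being separated from it. The libraries form 1 group, so no pattern across conditions existed by which other genes could be called alike.

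Reads of the 10 genes were also deposited per transcript, for 34 annotated transcripts. Most reads of Dlx1 were assigned to a transcript that is not annotated as coding, whereas those of Dlx2, Dlx5 and Emx2 were assigned almost wholly to coding ones. Dlx1-203, a retained-intron transcript of 3385 bases, took 46.1 expected counts in replicate 1 and 35.64 in replicate 2. The full coding transcript Dlx1-201, of 4111 bases, took 0 expected counts in replicate 1 and 8.71 in replicate 2. Transcripts annotated with a retained intron or as targets of nonsense-mediated decay together held 94.9% of Dlx1 counts in replicate 1 and 81.5% in replicate 2. Of the bases of Dlx1-203, 67.3% lie inside exons of Dlx1-201 and 1108 bases lie outside, so a read in the shared stretch can be assigned to either. Unspliced RNA and a mature retained-intron transcript cannot be told apart from these counts.

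Emx2 reads were divided between 2 coding transcripts. Emx2-201, of 2916 bases, took 69.15 expected counts in replicate 1 and 17.75 in replicate 2. Emx2-202, of 1580 bases, took 42.63 in replicate 1 and 25.83 in replicate 2, and all of its bases lie inside exons of Emx2-201. By share of TPM, Emx2-202 led in both libraries, with 54.0% in replicate 1 and 73.5% in replicate 2. Dlx2-201 took 70 counts in replicate 1 and 69.69 of the 71 in replicate 2. Dlx5-201 took 12.17 of 17 counts in replicate 1 and all 14 in replicate 2. By share of TPM, the leading transcript of these 4 genes did not change between the libraries, although by counts Emx2-201 led in replicate 1 and Emx2-202 in replicate 2. The leading transcripts of Otx1, Otx2 and Six3 differed between the libraries, at 6 counts or fewer per gene.

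**Figure D2:**
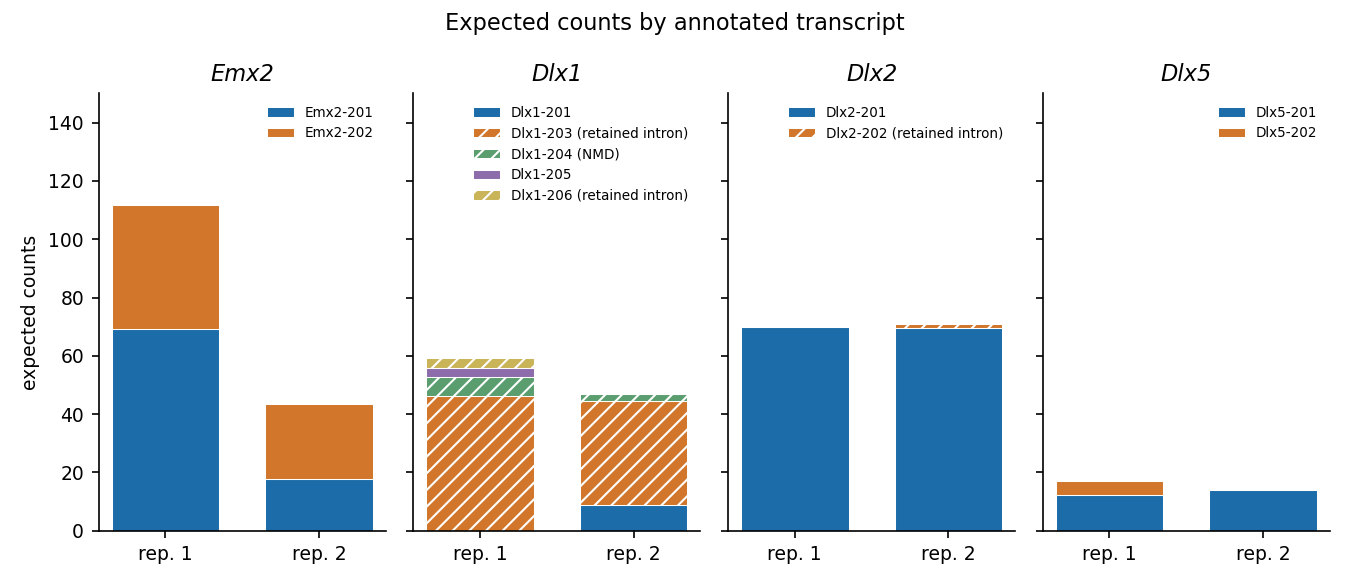
Expected counts (vertical axis) of Emx2, Dlx1, Dlx2 and Dlx5 in replicate 1 and replicate 2, stacked by annotated transcript, with hatching on transcripts not annotated as protein-coding (NMD, nonsense-mediated decay). Hatched transcripts held 94.9% and 81.5% of Dlx1 counts, while Dlx2-201 took 70 and 69.69 counts.

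Genes on the opposite strand overlap exons of 6 of the 10 genes, and no source used here says whether the libraries keep the strand of a read. Emx2os, a non-coding RNA gene antisense to Emx2, shares 264 bases with Emx2 exons, which is 8.79% of them. Emx2os had 81.21 expected counts in replicate 1 and 76.43 in replicate 2, at 0.95 and 0.86 TPM. Dlx1as, antisense to Dlx1, shares 335 bases or 6.21% of Dlx1 exons, and had 11.9 expected counts in replicate 1 and 2 in replicate 2. The fractional counts of Emx2 and Emx2os added up to whole numbers, 193 in replicate 1 and 120 in replicate 2, as reads divided between these genes would. Dlx1 and Dlx1as likewise added up to 71 in replicate 1, while in replicate 2 their counts were whole without adding. Six3 and Six3os1 added up to 19.28 in replicate 1, which is not whole. Six3os1, which overlaps 1.95% of Six3 exons, had more counts than Six3, with 13.28 in replicate 1 and 19 in replicate 2. The gene 4930447C04Rik overlaps 4.79% of Six6 exons and had 50 counts in replicate 1 and 37 in replicate 2, while Six6 had none. Otx2os1 and Dlx6os2 had no count, so no read was taken from Otx2 or Dlx6 by these partners. Among the genes of the deposited tables, the 10 genes shared no 100-base window of transcript sequence with another gene on the same strand, so paralogs could not take their reads by identity of that length. GENCODE M21 also places Gm49154 on the strand of Otx2, where it shares 168 bases or 3.98% of Otx2 exons, and Gm49154 was not analysed here.

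The pools were compared gene by gene with a two-sided exact binomial test on counts scaled by edgeR's TMM factors, with Benjamini-Hochberg adjustment over 17219 genes that had 10 counts in at least 1 library. One library stood on each side, so the test compares these libraries and covers counting error, not the spread between further pools. Of the 10 genes, 4 could be tested and 1 differed, Emx2, against 20.1% of all tested genes and 12.4% of the 4189 tested genes with a mean of 20 to 200 counts. The count of 1 in 4 is close to the share among all genes. Emx2 was 2.71-fold higher in replicate 1 than in replicate 2 (interval 1.89 to 3.93, adjusted p = 2.44e-07, exact binomial test). The ratio of replicate 1 to replicate 2 was 1.05 for Dlx2 (interval 0.743 to 1.48, adjusted p = 0.908), 1.33 for Dlx1 (interval 0.894 to 2.00, adjusted p = 0.321) and 1.29 for Dlx5 (interval 0.599 to 2.83, adjusted p = 0.769), by the same exact binomial test. Differences of these 3 genes were not detectable at this depth, and the Dlx5 interval allows more than that of Dlx2.

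Emx2 was also summed with Emx2os, with which it shares exon bases. Emx2os had a ratio of 1.13 (adjusted p = 0.675, exact binomial test). The sum of Emx2 and Emx2os, a setting chosen after seeing the data, had a ratio of 1.71 (interval 1.35 to 2.17, adjusted p = 7.90e-05, exact binomial test). Such a sum must lie between the ratios of its 2 genes. Its lower ratio therefore does not show that shared reads made up part of the Emx2 difference. Dlx1as was itself called, at 11.9 and 2 expected counts, with a ratio of 6.38 (interval 1.42 to 58.7, adjusted p = 0.0340, exact binomial test). The sum of Dlx1 and Dlx1as had a ratio of 1.54 (interval 1.06 to 2.26, adjusted p = 0.0893, exact binomial test). Genes of the urogenital ridge, where Emx2 is also active, were set beside it. Of all 17219 tested genes, 1668 were called higher in replicate 1 and 1790 lower. Of the 9 tested genes of a 10-gene urogenital list, 3 were called higher in replicate 1. The pharyngeal arch list had the same count, with 3 of 9 tested genes called higher in replicate 1, so this was not particular to urogenital genes. Wt1, a factor of the kidney and gonad mesoderm, had 115 counts in replicate 1 and 46 in replicate 2, a ratio of 2.66 (interval 1.87 to 3.83, adjusted p = 2.59e-07, exact binomial test). Osr1, a gene of intermediate mesoderm, had 422 counts in replicate 1 and 270 in replicate 2, a ratio of 1.66. Foxd1, a gene of kidney stroma, had 459 and 372 counts, a ratio of 1.31. These 3 are named because they were called. Of the 10 genes of the list, 8 had a ratio above 1, most of them uncalled. Cited1, at 0.790, and Pax2, at 0.951, lay below 1 and were not called. The summed level of the urogenital list was 72.1 TPM in replicate 1, against 61.6 TPM in replicate 2, while Nr5a1, which defines the adrenal and gonad primordium, had only 4 and 3 counts. Pax8, the highest gene of that list and also a gene of spinal interneurons, was at 20.1 and 20.6 TPM. The part of urogenital tissue in the Emx2 difference was not tested.

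**Figure D3:**
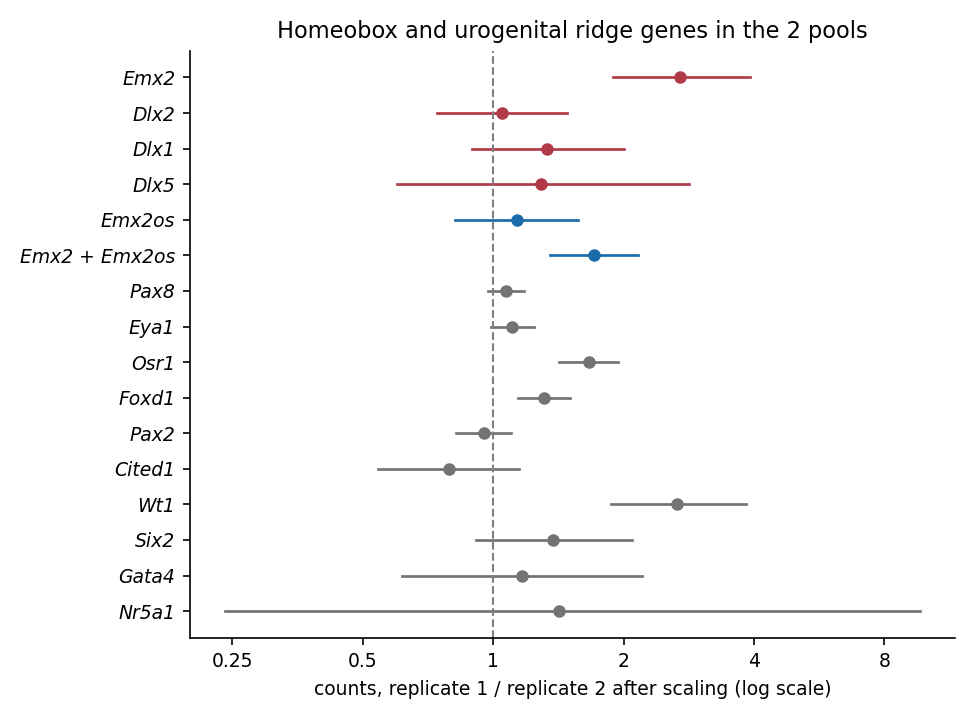
Ratio of scaled counts, replicate 1 over replicate 2, on a log scale (horizontal axis), for the 4 tested homeobox genes (red), Emx2os and its sum with Emx2 (blue) and the 10 urogenital ridge genes (grey). Points are ratios and lines exact 95% intervals; Emx2 at 2.71 and Wt1 at 2.66 lie farthest to the right of the dashed line at 1.

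The levels of the 10 genes were set beside lists of genes of the same and other regions. Among 16 further forebrain genes, 6 were at 1 TPM or more in both libraries, Gsx1, Sp8 and Lhx2 among them, and the median was 0.263 TPM. Gsx1, a progenitor gene of the ventral forebrain and of the dorsal spinal cord, was the highest at 9.96 TPM in replicate 1 and 8.92 TPM in replicate 2. Nkx2-1, a gene of the ventral forebrain, had 1 and 0 counts, and Eomes, Fezf1 and Vax1 had none. The last 4 genes were as near to 0 as Emx1, Dlx6 and Six6.

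Among the 13 genes of the midbrain and isthmus, 7 were at 1 TPM or more in both libraries and the median was 1.33 TPM. The highest were Pax8, at 20.1 and 20.6 TPM, and Wnt1, at 9.16 TPM in replicate 1 and 10.2 TPM in replicate 2, which is also made in the roof plate of the spinal cord. En2, which is active around the boundary of midbrain and hindbrain, had 0 counts in replicate 1 and 1 in replicate 2. Hindbrain genes were higher: 6 of 8 were at 1 TPM or more, with a median of 11.3 TPM, and Gbx2, which opposes Otx2 at that boundary, was at 34.5 TPM in replicate 1 and 36.5 TPM in replicate 2. Among the Hox genes, Hoxa9 led with 82.6 TPM in replicate 1 and 79.3 TPM in replicate 2, followed by Hoxc6 at 74.9 and 75.9 TPM. Otx2, at 0.13 and 0.26 TPM, thus stood far below its boundary partner Gbx2 in both libraries.

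**Figure D4:**
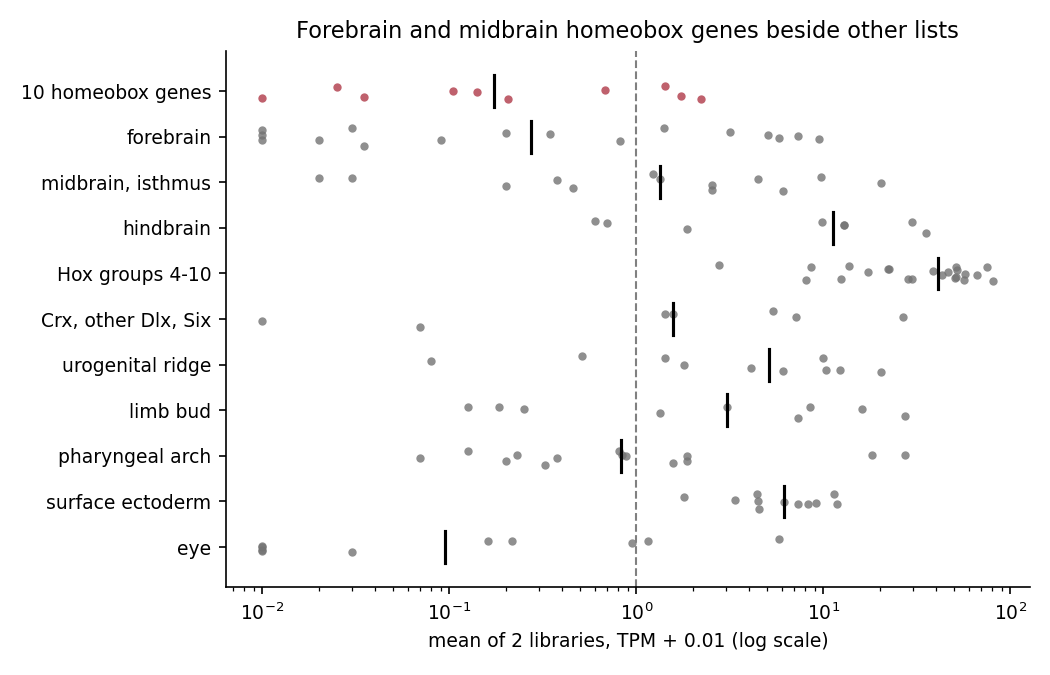
Mean level of the 2 libraries, as TPM + 0.01 on a log scale (horizontal axis), for the 10 homeobox genes (red) and for genes of 10 lists (grey), 1 point per gene, with list medians as black bars and 1 TPM as a dashed line. The median was 0.163 TPM for the 10 genes, 0.263 TPM for the forebrain list and 40.9 TPM for Hox groups 4 to 10, before 0.01 was added.

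Other tissues in which these genes act were represented to different extents. Eye genes were low, with 2 of 10 at 1 TPM or more and a median of 0.085 TPM, and the eye field gene Rax had 1 count in replicate 1 and 0 in replicate 2. Limb bud genes had 6 of 9 at 1 TPM or more, led by Prrx1 at 30.2 TPM in replicate 1 and 24.2 TPM in replicate 2. The limb genes Tbx5 and Tbx4 averaged 0.24 and 0.175 TPM. Pharyngeal arch genes had 5 of 14 at that level, with Twist1 at 19.7 and 16.7 TPM, while the means of Gsc, Hand1, Barx1 and Hand2 were 0.365, 0.315, 0.22 and 0.115 TPM. All 11 surface ectoderm genes were at 1 TPM or more, with Perp at 12.5 and 11.2 TPM and Krt8 at 11.5 and 11.2 TPM. Surface markers were thus all present, whereas limb and arch markers were in part near 0. The part of these tissues in the reads of Dlx1, Dlx2 and Dlx5 was not tested.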

How the data were processed

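The 2 libraries of 1 group were used, the labels' biological replicates 1 and 2. The authors deposited expected counts and TPM for genes and for transcripts, made on mm10 with GENCODE M4 per the deposited file descriptions, together with a deposited percent for each transcript, its share of its gene's TPM. Which aligner and quantifier were used: not given in the sources used here. Spike-ins are part of the deposited TPM and made up 13.2% of them in replicate 1, against 11.8% in replicate 2.

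GENCODE M21, also on the mm10 build, gave symbols and coordinates; 42462 of 43346 gene identifiers matched and 884 did not. Numbered entries (26248) and spike-ins (97) are not among the genes. Expected counts were rounded and scaled with TMM factors of edgeR 4.0.16 (1.00005 and 0.999946) in R 4.3.3. They were compared with a two-sided exact binomial test in Python 3.11.15 with scipy 1.17.1. The code was tried on simulated Poisson counts, which hold counting error only. That trial checks the code and not how well the test suits these libraries. A test on replicated counts was not run, because the only comparison is between single libraries. The threshold was an adjusted p of 0.05. Alternatives used size factors of DESeq2 1.42.0, other thresholds and the posterior mean estimates in the same files. Promoters came from the RefSeq table of GRCm38.p6, in which Otx1, Dlx5 and Dlx6 were not matched. All 10 genes are named, with the 2 highest genes of each list and those needed beside one of the 10; some genes this rule names are not reported here. The 10 genes and the lists were chosen with earlier results of these data known, and lists share genes.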

Additional observations from a re-analysis of the deposited data

How the results depend on the processing

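The number of the 10 genes at the detection level was 2 at 1 TPM, 4 at 0.5 TPM, 0 at 2 TPM and 4 at 10 counts in both libraries, and 2 to 3 when either library was left out. It was 3 with posterior mean TPM, with TPM rescaled without spike-ins and with 1 effective length. Posterior mean TPM moved 6 of 10 levels beyond the spread of the libraries. It gave Otx2 0.765 TPM on average, from 4 counts in each library. It gave Dlx6 0.39 TPM in replicate 1, where that gene had 0 counts, and 0.4 TPM in replicate 2, where it had 1. The number of neighbouring genes separated in the order was 2, and 5 with posterior mean TPM and with 1 effective length. The order itself changed with posterior mean TPM. There Otx2, at 0.765 TPM, stood above Dlx5, at 0.745 TPM, with overlapping library values, and Dlx6 stood above Otx1 and Six3. Both the 1 effective length and the sums with antisense genes were chosen after seeing the data. Leading transcripts were the same in both libraries for 4 genes, and for 8 with posterior mean percents. The genes added by that setting, Dlx6, Emx1, Otx1 and Otx2, had at most 4 counts in each library. Dlx6-204 led there with 50.3% in replicate 1 and 47.1% in replicate 2, at 0 counts in both. Such agreement therefore need not rest on reads. The number of antisense genes at the detection level was 0, and 1 with posterior mean TPM, 1 at 0.5 TPM, and 0 to 1 when either library was left out. The cause of these moves was not tested. Emx2 alone differed between the pools under all 5 alternatives of scaling, filter and estimate; scaling by spike-ins shifted every ratio by 0.20 on the log2 scale, called 9119 genes against 3458, and turned the uncalled Dlx2 ratio to 0.912. No paired analysis was possible because the 2 libraries form 1 group. Depth limits the 6 genes at 6 counts or fewer to upper bounds.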

Other observations

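Genes that Dlx factors regulate, or that accompany GABAergic differentiation, were listed as well. Of 10 such genes, 7 were at 1 TPM or more in both libraries, with a median of 1.53 TPM. Zeb2, a factor of interneuron migration that is also widely expressed elsewhere, was at 35.1 TPM in replicate 1 and 41.2 TPM in replicate 2. Gad2, an enzyme of GABA synthesis that spinal interneurons also make, was at 8.28 TPM in replicate 1 and 7.43 TPM in replicate 2. Lhx8, a gene of the ventral forebrain and the arches, had 3 counts in replicate 1 and 6 in replicate 2. Zeb2 was the only gene of this list called between the pools, with a ratio of 0.935 (adjusted p = 0.0370, exact binomial test).

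Other genes of the limb and forebrain lists differed between the pools in either direction. Pitx1, a hindlimb gene, had 165 counts in replicate 1 and 75 in replicate 2, a ratio of 2.34, whereas Tbx5, a forelimb gene, had 8 counts in replicate 1 and 25 in replicate 2, a ratio of 0.340. The adjusted p was 2.26e-08 for Pitx1 and 0.0306 for Tbx5 (exact binomial test). Lhx2, of the forebrain list and also a gene of dorsal spinal interneurons, had 169 counts in replicate 1 and 246 in replicate 2, a ratio of 0.730 (adjusted p = 0.0129, exact binomial test). These genes were named after their values were seen, and 20.1% of all tested genes were called.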
